A study of Mus musculus with 6 samples.

Results

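The insulin-like growth factor (IGF) family was followed in C2C12 myotubes through 10 genes chosen by symbol, namely the ligand genes Igf1 and Igf2, the receptor genes Igf1r and Igf2r, and the binding protein genes Igfbp2, Igfbp3, Igfbp4, Igfbp5, Igfbp6 and Igfbp7. All 10 were found among the 24411 symbols of the deposited counts, and all 10 passed the filter on low counts. C2C12 is an immortalised wild-type mouse myoblast line whose cells stop dividing and fuse into multinucleated myotubes in horse serum. Fully differentiated myotubes received 10 µM Sardomozide dihydrochloride, an inhibitor of S-adenosylmethionine decarboxylase (the Amd1 product, which feeds polyamine synthesis), for 72 h in 3 libraries, or the solvent DMSO for the same 72 h in 3 libraries. Separate cultures are not stated for the 3 libraries of either group. The p-values here therefore reflect library-to-library spread alone, some or all of which may be technical.

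IGF1 and IGF2 are secreted hormones that bind the IGF1 receptor, a tyrosine kinase at the cell surface whose signal through phosphoinositide 3-kinase and AKT promotes muscle protein synthesis and differentiation. The IGF2 receptor has no kinase: it is also the receptor that sorts enzymes tagged with mannose 6-phosphate to the lysosome, and it takes up IGF2 for breakdown there. The binding proteins are secreted, hold IGFs outside the cell, and either keep them from the receptor or release them to it when proteases cut the binding protein. In cultured myoblasts, Igf2 and Igfbp5 are known as genes that rise during differentiation.

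The totals were 30820423 to 36709804 counts in the Sardomozide libraries and 25496323 to 32108033 in the DMSO libraries (p = 0.2, two-sided exact permutation test, smallest possible p 0.1). Of 11 markers of differentiated muscle, all 11 passed the filter on low counts, and their summed level was 18620 to 21520 CPM (counts scaled to a common library size with TMM factors) in the Sardomozide libraries and 18430 to 19650 CPM in the DMSO libraries. The highest sum was that of Sardomozide replicate 2, which stood apart for Ttn, the titin gene, at 4042 CPM, against 1609 and 1371 CPM in the other Sardomozide libraries and 1744, 1725 and 1500 CPM in the DMSO libraries. Markers of cycling cells were detected too, with 7 of 7 tested and a summed level of 326 to 376 CPM in the Sardomozide libraries and 309 to 329 CPM in the DMSO libraries. Among markers of other tissues, Adipoq, Plin1 and Lep of adipocytes, Ptprc and Adgre1 of immune cells, Tcf21 of fibroblasts and Rbfox3 and Snap25 of neurons had 0 counts in all 6 libraries. Some other genes of these lists were expressed. Col1a1 and Dcn of fibroblasts averaged 2646 and 11.0 CPM with Sardomozide, and 2876 and 18.8 CPM with DMSO. Tubb3 of neurons and Cebpa of adipocytes averaged 15.75 and 25.4 CPM with Sardomozide, and 26.65 and 28.3 CPM with DMSO. The 5 endothelial markers summed to 0.643 to 0.896 CPM with Sardomozide and 0.590 to 1.11 CPM with DMSO, and the 5 immune markers to 1.90 to 2.53 CPM with Sardomozide and 1.85 to 2.09 CPM with DMSO.

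With Sardomozide, 4 of the 6 binding protein genes changed: Igfbp4, Igfbp5 and Igfbp7 fell, Igfbp3 rose, and neither Igfbp2 nor Igfbp6 passed the test. None of the 2 ligand and 2 receptor genes passed. The test was edgeR's quasi-likelihood test on the counts of all 13076 genes that passed the filter, with Benjamini-Hochberg adjustment and a threshold of 0.05. Over all of those genes 16.3% passed, 7.88% as higher and 8.45% as lower. Of the 10 family genes, 1 passed as higher and 3 as lower. The libraries of the groups did not overlap for 4 of the 10, against 33.5% of all genes tested. The median log2 fold change (Sardomozide over DMSO) of the 10 genes was -0.06, against -0.000824 over all genes tested. In RNA from whole cultures, fewer cells that express a gene and less of its RNA per cell cannot be told apart.

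**Figure D1:**
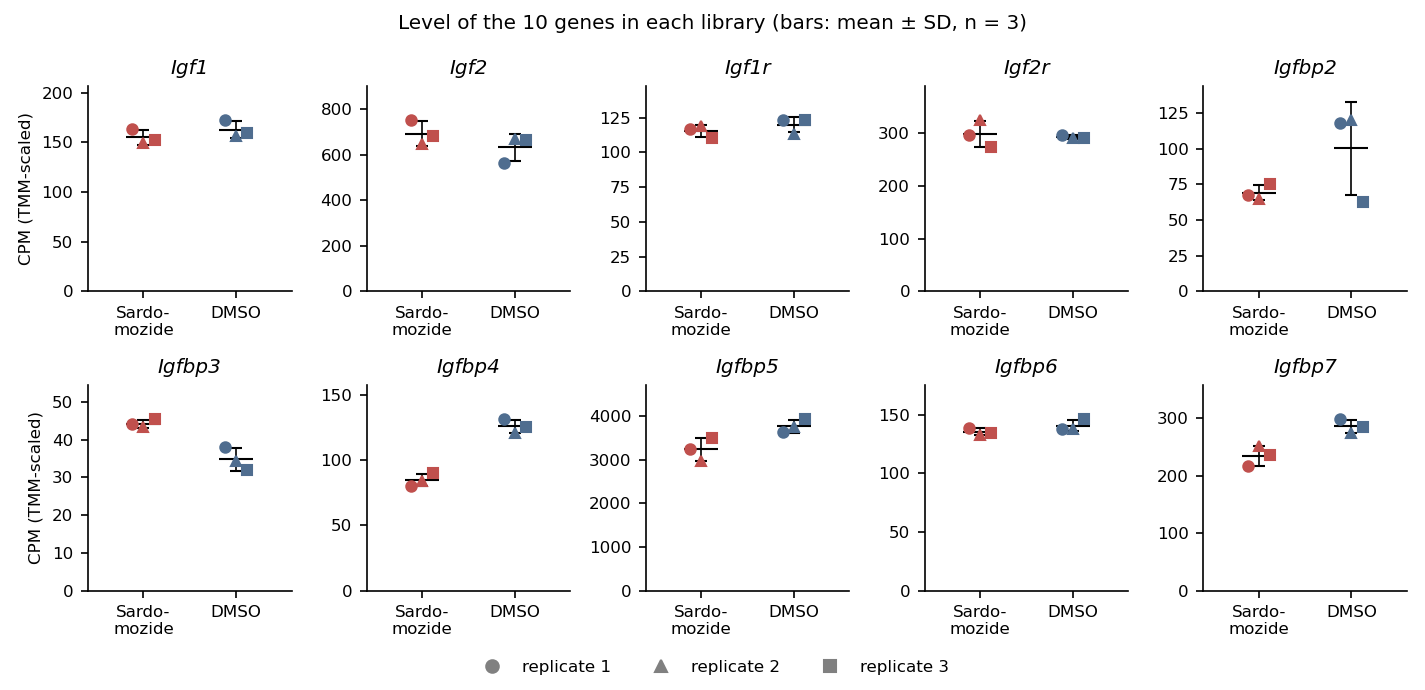
CPM of each gene (vertical axes, from 0) in the 3 Sardomozide libraries (left, red) and the 3 DMSO libraries (right, blue), with symbols for replicate numbers and bars for the mean ± SD. The groups do not overlap for Igfbp3, Igfbp4, Igfbp5 and Igfbp7, and for Igfbp2 DMSO replicate 3 (63.0 CPM) lies below all 3 Sardomozide libraries.

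Igfbp4 had the largest change among the genes of the family that passed. It encodes a binding protein best known for keeping IGFs from their receptor until the protease PAPP-A cuts it. Its level was 80.6, 84.0 and 90.3 CPM in the Sardomozide libraries, against 131.5, 121 and 125.5 CPM in the DMSO libraries. Every Sardomozide library lay well under every DMSO library. The mean was 85.0 ± 4.93 CPM with Sardomozide and 126 ± 5.06 CPM with DMSO (SD, n = 3 each). Igfbp4 fell by 32.6% (log2 fold change -0.57 ± 0.05 SE, 95% interval -0.67 to -0.47, edgeR adjusted p = 1.63e-07). Ranked by adjusted p, Igfbp4 was number 23 of the 13076 genes. It passed in all 6 fits that left out a library (log2 fold change -0.62 to -0.53). In GRCm38, the build of all coordinates here, Igfbp4 spans 99041244 to 99054392 on the forward strand of chromosome 11.

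Igfbp7, whose product binds IGFs weakly and is also found in the matrix around cells and vessels, had 217, 251 and 235 CPM in the Sardomozide libraries, against 298, 275 and 285 CPM in the DMSO libraries. The groups did not overlap, with Sardomozide replicate 2 nearest to the DMSO libraries. The gene fell by 18.1% (log2 fold change -0.29 ± 0.05 SE, 95% interval -0.39 to -0.18, edgeR adjusted p = 0.000574), and passed whichever library was left out (-0.34 to -0.23). Igfbp7 lies on chromosome 5 from 77349240 to 77408041, on the reverse strand, and its exons share 85 bases with exons of Polr2b on the other strand. The sources used here do not say whether counting used strand, so reads in those 85 bases cannot be assigned with certainty. Polr2b, a subunit gene of RNA polymerase II, averaged 123 ± 1.87 CPM with Sardomozide and 122 ± 2.33 CPM with DMSO (edgeR adjusted p = 0.867).

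Igfbp5 was the most abundant gene of the family and number 10 of all 13076 genes by mean CPM. Its product is the main IGF-binding protein that muscle cells make, and it binds to matrix. The libraries held 3234, 2976 and 3501 CPM with Sardomozide, against 3622, 3739 and 3918 CPM with DMSO. The gap between the groups was narrow: Sardomozide replicate 3 and DMSO replicate 1 differed less than the Sardomozide libraries did among themselves. Igfbp5 fell by 13.9% (log2 fold change -0.22 ± 0.05 SE, 95% interval -0.33 to -0.10, edgeR adjusted p = 0.00976). The call was lost without Sardomozide replicate 2 (log2 fold change -0.16, adjusted p = 0.0607) and without DMSO replicate 3 (-0.18, adjusted p = 0.0766), fits that also have fewer libraries, and was kept in the other 4 fits without a library. Igfbp5 lies on chromosome 1 from 72857932 to 72874884, on the reverse strand, beside Igfbp2.

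Igfbp3 moved the other way. Its product is the main carrier of IGFs in blood, made by many cell types. It had 44.1, 43.3 and 45.4 CPM in the Sardomozide libraries, against 38.1, 34.4 and 32.1 CPM in the DMSO libraries. The Sardomozide libraries lay close together, above every DMSO library. Igfbp3 rose by 27.3% (log2 fold change 0.35 ± 0.07 SE, 95% interval 0.21 to 0.49, edgeR adjusted p = 0.00105) and passed in all 6 fits without a library (0.29 to 0.41). It lies on chromosome 11 from 7206086 to 7213923, on the reverse strand. Its chromosomal neighbour Igfbp1, the binding protein gene of liver, had 0 counts in every library, which allows up to 3 counts, or 0.0822 to 0.118 CPM depending on the library (counting error only).

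**Figure D2:**
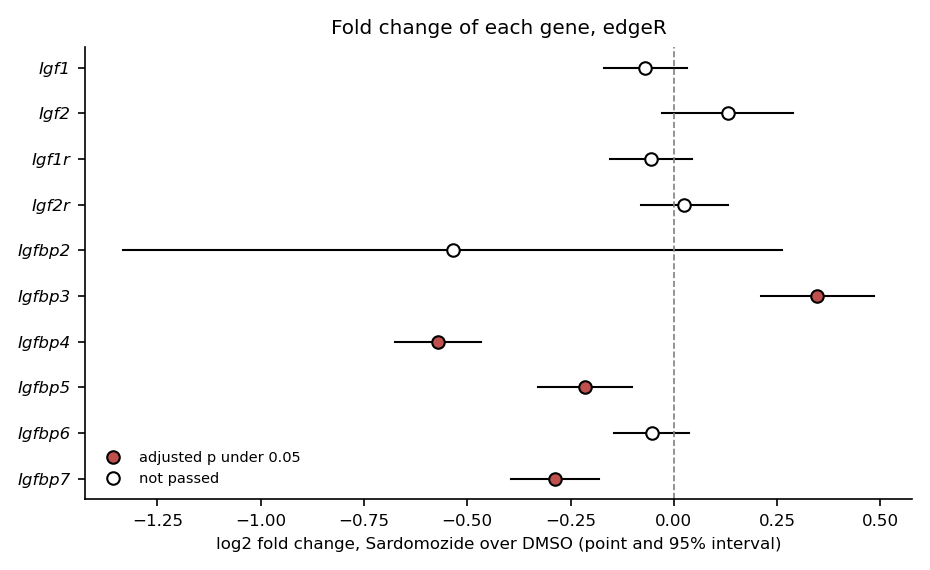
Log2 fold change (Sardomozide over DMSO, horizontal axis) of the 10 genes with 95% intervals, filled where edgeR's adjusted p was under 0.05. Only Igfbp3 has an interval above 0, Igfbp4, Igfbp5 and Igfbp7 have intervals below 0, and that of Igfbp2 is the widest (-1.33 to 0.26).

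For the 4 genes that passed, the 250 bases before the RefSeq start site are shown, in the direction of transcription. They come from RefSeq's promoter table for GRCm38.p6, whereas the gene spans given here are those of GENCODE M21. For Igfbp5 the window, from 72874866, overlaps the gene span given above, which ends at 72874884. All 10 genes matched this table, with 4 start sites for Igf2, 2 for Igfbp2 and 1 for each of the others. Capitals mark 2 motifs, searched on both strands: CANNTG, the E-box that myogenic factors and other helix-loop-helix proteins bind, and TATAAA, the core of a TATA box. The windows are those of Igfbp4 (chr11:99040994-99041243, forward strand), Igfbp5 (chr1:72874866-72875115, reverse strand), Igfbp7 (chr5:77408046-77408295, reverse strand) and Igfbp3 (chr11:7213924-7214173, reverse strand).
Igfbp4: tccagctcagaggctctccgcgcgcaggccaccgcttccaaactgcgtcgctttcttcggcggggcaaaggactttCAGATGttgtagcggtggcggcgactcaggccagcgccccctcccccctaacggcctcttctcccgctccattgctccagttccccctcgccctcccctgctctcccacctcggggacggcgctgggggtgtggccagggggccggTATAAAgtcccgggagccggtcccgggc
Igfbp5: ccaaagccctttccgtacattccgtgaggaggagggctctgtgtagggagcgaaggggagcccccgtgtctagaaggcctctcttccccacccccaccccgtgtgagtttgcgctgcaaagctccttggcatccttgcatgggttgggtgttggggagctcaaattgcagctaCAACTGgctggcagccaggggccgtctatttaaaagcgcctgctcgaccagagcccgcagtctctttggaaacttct
Igfbp7: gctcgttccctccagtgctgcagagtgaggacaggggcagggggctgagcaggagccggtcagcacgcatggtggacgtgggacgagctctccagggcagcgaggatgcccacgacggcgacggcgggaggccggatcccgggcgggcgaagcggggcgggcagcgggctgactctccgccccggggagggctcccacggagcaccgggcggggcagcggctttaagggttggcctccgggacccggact
Igfbp3: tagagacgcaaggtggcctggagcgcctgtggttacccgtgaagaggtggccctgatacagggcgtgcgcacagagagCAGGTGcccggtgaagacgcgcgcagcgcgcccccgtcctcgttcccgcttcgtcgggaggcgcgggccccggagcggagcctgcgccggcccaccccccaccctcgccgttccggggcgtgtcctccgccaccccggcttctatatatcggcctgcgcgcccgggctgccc

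An E-box each was found for Igfbp4, Igfbp5 and Igfbp3, starting 174, 77 and 172 bases before the RefSeq start site. The window of Igfbp7 held 0. Over all 32851 windows of the same length in the table, 66.2% hold at least 1 E-box of this form. The TATAAA motif was found once, 28 bases before the start of Igfbp4, and 12.4% of all windows hold it. Only this exact form was searched, so other TATA-like stretches in the windows were not counted. A narrower E-box, CAGCTG, which the wider search includes, was in none of the 4 windows and in 13% of all windows. The G and C content was 69.2% for Igfbp4, 58.8% for Igfbp5, 74% for Igfbp7 and 73.2% for Igfbp3. These letters describe the windows and do not measure binding, and the 3 genes that fell share no motif of these that Igfbp3 lacks.

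Igfbp2, a binding protein gene active in embryonic tissues, was split within a group. It had 67.4, 64.98 and 75.2 CPM in the Sardomozide libraries, against 118, 120 and 63.0 CPM in the DMSO libraries. DMSO replicates 1 and 2 lay far above every Sardomozide library, and DMSO replicate 3 lay below all of them. The log2 fold change was -0.54 ± 0.29 SE with a 95% interval of -1.33 to 0.26 (edgeR adjusted p = 0.325), which holds both a large fall and a small rise. Without DMSO replicate 3 the gene passed as lower (-0.78 ± 0.06 SE, adjusted p = 3.94e-08), and without any other library it did not pass. The other 9 family genes showed no such split: their DMSO libraries varied by 1.17% to 9.38% of the mean (coefficient of variation), against 32.3% for Igfbp2. Igfbp2 lies on chromosome 1 from 72824503 to 72852474, on the forward strand.

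Igfbp6, whose product prefers IGF2 over IGF1, had 139, 133 and 134.5 CPM with Sardomozide, against 138, 138 and 146 CPM with DMSO. The groups overlapped, and the 95% interval of its log2 fold change (-0.14 to 0.04, edgeR adjusted p = 0.451) holds changes from a fall to 0.905 of the DMSO level to a rise to 1.03 times that level. Its locus is 102144362 to 102149511 on the forward strand of chromosome 15. The binding protein genes together summed to 3782, 3552 and 4082 CPM in the Sardomozide libraries, against 4346, 4428 and 4569 CPM in the DMSO libraries. Igfbp5 supplies most of that sum. Without it, the other 5 genes summed to 548, 576 and 581 CPM with Sardomozide, against 724, 689 and 651.5 CPM with DMSO. The ratio of Igfbp4 to Igfbp3 counts was 1.92 ± 0.08 with Sardomozide and 3.63 ± 0.25 with DMSO (SD, n = 3 each), 2 genes that passed in opposite directions.

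**Figure D3:**
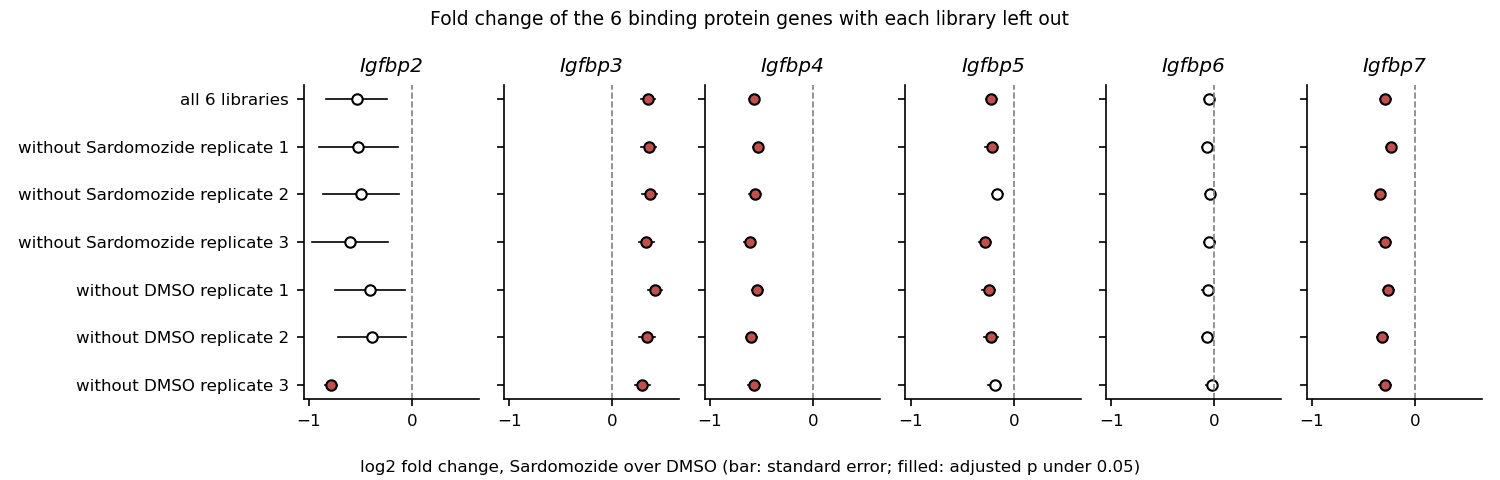
Log2 fold change (Sardomozide over DMSO, horizontal axes) of the 6 binding protein genes with all 6 libraries (top) and with each library left out, with standard errors as bars and filled points where edgeR's adjusted p was under 0.05. Igfbp3, Igfbp4 and Igfbp7 are filled in every row, Igfbp5 is open without Sardomozide replicate 2 or DMSO replicate 3, and Igfbp2 is filled only without DMSO replicate 3.

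Among the ligand genes, Igf2 had 753, 647 and 683 CPM in the Sardomozide libraries, against 566, 672 and 665 CPM in the DMSO libraries. The groups overlapped, since Sardomozide replicate 2 lay under DMSO replicates 2 and 3, and DMSO replicate 1 was the lowest of all 6. The log2 fold change was 0.13 ± 0.07 SE (95% interval -0.03 to 0.29, edgeR adjusted p = 0.264). Igf2 (chromosome 7, 142650766 to 142666816, reverse strand) is expressed from the paternal copy. It shares 3596 exonic bases with Gm49394, annotated on the same strand, and 98 with the antisense gene Igf2os. The counts of Igf2 may therefore include reads of these. The deposited counts hold no row under the symbol Gm49394. Igf2os had only 2.45 ± 0.67 CPM with Sardomozide and 1.65 ± 0.12 CPM with DMSO (edgeR adjusted p = 0.144).

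Igf1 had 163, 149 and 152.5 CPM with Sardomozide, against 172, 157 and 159 CPM with DMSO. These ranges overlapped, with a log2 fold change of -0.07 ± 0.05 SE (95% interval -0.17 to 0.03, edgeR adjusted p = 0.362). Its locus is 87858265 to 87937042 on the forward strand of chromosome 10. The ratio of Igf2 to Igf1 in CPM per kb of exon was 7.97, 7.505 and 7.75 in the Sardomozide libraries, against 5.69, 7.42 and 7.23 in the DMSO libraries. Every Sardomozide library had a higher ratio than every DMSO library, by a margin that was small except against DMSO replicate 1. The ratio is a description and was not tested. Among all single genes tested, 33.5% also had groups that did not overlap.

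Neither receptor gene passed. Igf1r, the gene of the signalling receptor, had 117, 119 and 110 CPM with Sardomozide, against 123, 114 and 123 CPM with DMSO (log2 fold change -0.05 ± 0.05 SE, 95% interval -0.15 to 0.04, edgeR adjusted p = 0.484). Its groups overlapped. Igf2r, the gene of the receptor that clears IGF2, had 296, 324 and 274 CPM with Sardomozide, against 297, 291 and 291 CPM with DMSO (0.03 ± 0.05 SE, 95% interval -0.08 to 0.13, edgeR adjusted p = 0.787). The 3 DMSO libraries of Igf2r all lay within the range of its Sardomozide libraries, and the sign of its fold change turned without Sardomozide replicate 2 (-0.04, adjusted p = 0.639). The genes lie on chromosome 7 from 67952827 to 68233668 (Igf1r) and on chromosome 17 from 12682406 to 12769664 (Igf2r).

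**Figure D4:**
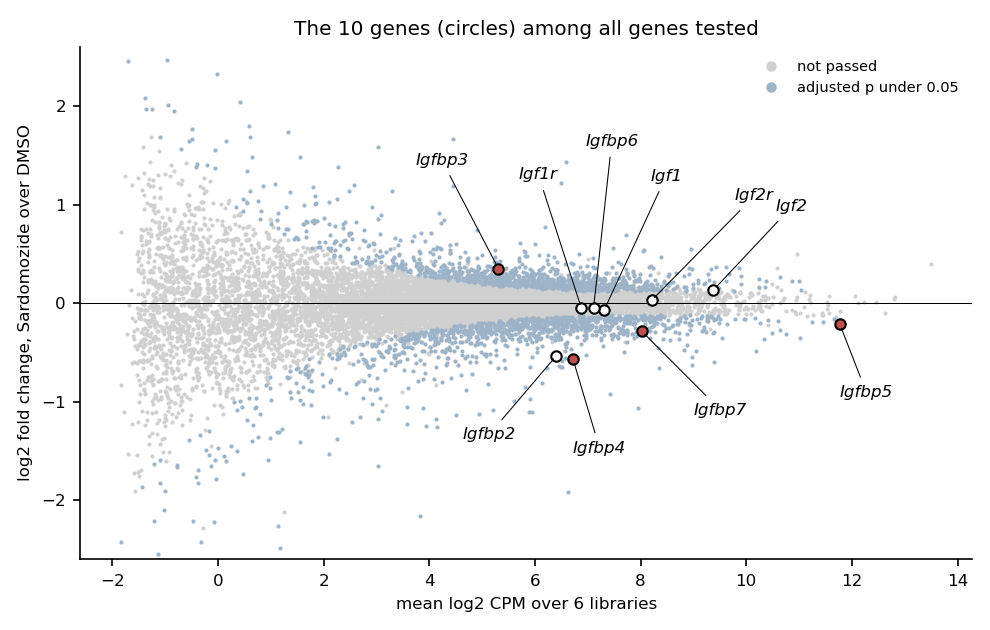
Log2 fold change (Sardomozide over DMSO, vertical axis, cut at 2.6 in either direction, with 2 genes outside) against mean log2 CPM for all 13076 genes tested, with the 10 family genes as circles, filled where edgeR's adjusted p was under 0.05. Igfbp4 and Igfbp2 sit side by side at about the same level and fold change, but only Igfbp4 is filled, and Igfbp5 lies at the far right among the most abundant genes.

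Levels of different genes can be compared only per length, so CPM were divided by the exon length of each gene in GENCODE M21. With Sardomozide and with DMSO alike, the means ran from high to low in the order Igfbp5, Igfbp7, Igfbp6, Igf2, Igfbp2, Igf2r, Igfbp4, Igf1, Igfbp3 and Igf1r. Igfbp5 reached 539 ± 43.7 CPM per kb with Sardomozide and 626 ± 24.8 CPM per kb with DMSO, and Igfbp7 reached 194 ± 14.2 with Sardomozide and 237 ± 9.57 with DMSO. Igfbp6 stood at 122 ± 2.83 and Igf2 at 121 ± 9.40 CPM per kb with Sardomozide, where the libraries of these neighbours in the order overlapped. They did not overlap with DMSO, at 126 ± 4.09 for Igfbp6 and 111 ± 10.4 for Igf2. No other neighbours overlapped in either group. Igfbp2 averaged 37.5 ± 2.90 CPM per kb with Sardomozide and 54.3 ± 17.5 with DMSO. Igf2r averaged 32.0 ± 2.71 CPM per kb with Sardomozide and 31.5 ± 0.37 with DMSO, and Igfbp4 19.2 ± 1.12 with Sardomozide and 28.6 ± 1.15 with DMSO. At the low end Igf1 had 15.65 ± 0.75, Igfbp3 14.1 ± 0.34 and Igf1r 6.88 ± 0.27 CPM per kb with Sardomozide, and 16.4 ± 0.84, 11.1 ± 0.97 and 7.15 ± 0.33 CPM per kb with DMSO. Igfbp5 made up 58.2 ± 2.24% of the summed binding protein CPM per kb with Sardomozide and 57.8 ± 1.94% with DMSO. With the length of the longest transcript instead, Igf2 stood above Igfbp6 on average in both groups, at 147 CPM per kb with Sardomozide and 134 with DMSO, though their libraries overlapped with DMSO. By that length, Igf2r and Igfbp4 also overlapped with DMSO, at means of 32.95 and 32.92 CPM per kb. Igfbp4 and Igf1 overlapped with Sardomozide, at means of 22.18 and 21.98 CPM per kb.

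**Figure D5:**
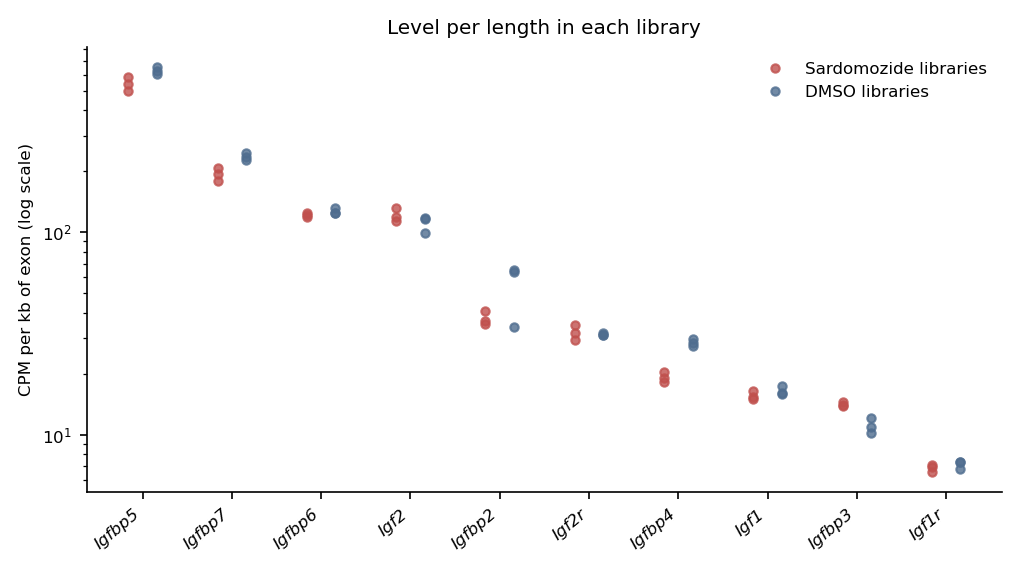
CPM per kb of exon (vertical axis, log scale) of the 10 genes in the 3 Sardomozide libraries (left of each pair, red) and the 3 DMSO libraries (right, blue), ordered by the DMSO mean. Igfbp5 stands highest at 539 CPM per kb with Sardomozide and 626 with DMSO on average, and Igf1r lowest at 6.88 with Sardomozide and 7.15 with DMSO.

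The proteins that control cutting of the binding proteins were read from a list of 8 genes, of which 2 rose and 0 fell (median log2 fold change -0.03), where 7.88% of all genes tested passed as higher and 8.45% as lower. With so few genes the count is a description only. Both that rose encode stanniocalcins, secreted glycoproteins that inhibit PAPP-A. Stc2 had 26.15, 22.8 and 21.1 CPM in the Sardomozide libraries, against 11.4, 12.5 and 13.2 CPM in the DMSO libraries. Its groups were far apart (log2 fold change 0.92 ± 0.10 SE, edgeR adjusted p = 1.81e-06), and it passed in all 6 fits without a library. Stc1 had 3.18, 2.63 and 2.945 CPM with Sardomozide, against 1.69, 1.40 and 2.11 CPM with DMSO (0.75 ± 0.23 SE, edgeR adjusted p = 0.0303). The Stc1 call was lost in 4 of the 6 fits, namely with Sardomozide replicate 1 or 3 left out (adjusted p = 0.0897 and 0.0687) and with DMSO replicate 1 or 2 left out (0.0833 and 0.126). In each of those 4 fits 1 gene of the list rose, Stc2. Pappa, the gene of PAPP-A itself, averaged 10.6 ± 0.59 CPM with Sardomozide and 10.8 ± 0.30 CPM with DMSO (edgeR adjusted p = 0.92), a gene chosen after its values were seen.

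Downstream of the receptor, 3 of 21 adaptor, kinase and phosphatase genes rose and 0 fell (median log2 fold change -0.01). Over all genes tested 16.3% passed, 7.88% as higher, so a count of 3 in 21 is near the background and is not a result about this list. Akt2, the AKT isoform gene best known for insulin action in muscle and fat, had 385, 401 and 384 CPM with Sardomozide, against 274.5, 290 and 283 CPM with DMSO. That is a wide and even separation (log2 fold change 0.47 ± 0.04 SE, edgeR adjusted p = 2.1e-07). Pdpk1, whose kinase product activates AKT, had 147, 153 and 150 CPM with Sardomozide, against 125, 126 and 126 CPM with DMSO (0.26 ± 0.04 SE, edgeR adjusted p = 0.000225). Gab1, a docking protein gene, averaged 72.8 ± 4.94 CPM with Sardomozide and 64.0 ± 0.84 CPM with DMSO (0.19 ± 0.05 SE, edgeR adjusted p = 0.0228). Its call was lost without Sardomozide replicate 1 (adjusted p = 0.112) and without DMSO replicate 1, 2 or 3 (0.062, 0.0803 and 0.0627). The adaptor gene Irs1, also chosen after its values were seen, had log2 fold change 0.02 ± 0.04 SE (edgeR adjusted p = 0.835).

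Among 7 related family genes outside the 10, Igfbp1, Igfbpl1, Insrr and Ins1 had 0 counts in all libraries, Igfals had at most 2 in any, and 2 were tested, with none passing and a median log2 fold change of 0.04. Insr, the insulin receptor gene, averaged 75.0 ± 3.65 CPM with Sardomozide and 67.9 ± 0.20 CPM with DMSO (log2 fold change 0.14 ± 0.05 SE, edgeR adjusted p = 0.0601), and passed without Sardomozide replicate 3 (0.0497). Ins2 was scarce, at 0.41 ± 0.16 CPM with Sardomozide and 0.44 ± 0.22 CPM with DMSO. A further list held IGF2 mRNA-binding protein genes, the Igf2 neighbours H19 and Igf2os, the RNA-binding protein genes Lin28a and Lin28b, and the zinc finger genes Plagl1 and Zfp57, which lie elsewhere in the genome. Of its 7 tested genes none passed (median -0.23). The nearest was Plagl1, an imprinted zinc finger gene, with 2.44 ± 0.26 CPM with Sardomozide and 1.35 ± 0.54 CPM with DMSO (0.83 ± 0.29 SE, edgeR adjusted p = 0.0514), followed by Lin28a (-1.17 ± 0.51 SE, adjusted p = 0.126). H19, the noncoding neighbour of Igf2, named here after its values were seen, was expressed at 7209 ± 1100 CPM with Sardomozide and 6993 ± 555 CPM with DMSO. Of 7 genes of mannose 6-phosphate tagging and sorting, the other route of the IGF2 receptor, none passed (median 0.03), with Gnptab and Gga1 nearest (adjusted p = 0.233 and 0.372).

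Some genes of the marker lists passed too. Over all genes tested 16.3% passed, 7.88% as higher and 8.45% as lower. With so few genes in each list, the counts that follow are descriptions only. Of 6 fibroblast markers 3 were tested and 1 fell: Dcn, the decorin gene, averaged 11.0 ± 2.37 CPM with Sardomozide and 18.8 ± 2.15 CPM with DMSO (edgeR adjusted p = 0.00187), while the summed level of the list, nearly all Col1a1, was 2226 to 3071 CPM with Sardomozide and 2554 to 3100 CPM with DMSO, and Tcf21 was at 0. Of 6 markers of undifferentiated myogenic cells 1 fell, Spry1 (edgeR adjusted p = 0.0037). The 6 summed to 408 to 416 CPM with Sardomozide and 422 to 444 CPM with DMSO. Spry1 itself averaged 81.2 CPM with Sardomozide and 94.7 CPM with DMSO. Pax7 alone of this list had a positive log2 fold change (0.09, edgeR adjusted p = 0.24). Of 7 cycling markers 2 rose, Mki67 and Bub1 (edgeR adjusted p = 0.0443 and 0.0186). Mki67 kept its call in 1 and Bub1 in 4 of the 6 fits without a library. Mki67 also missed the threshold with DESeq2 (adjusted p = 0.0596), limma-voom (0.0695), the replicate block (0.0518) and non-robust edgeR estimation (0.0584). Of 11 myotube markers 2 rose, Myog and Casq2, and 1 fell, Myh8. Of 5 neuron markers 2 were tested and 1 fell, Tubb3, with a sum of 16.5 to 16.8 CPM with Sardomozide and 24.7 to 36.2 CPM with DMSO. The tested markers of adipocytes (1 of 5), endothelial cells (2 of 5) and immune cells (1 of 5) did not pass, and the adipocyte list summed to 22.3 to 28.8 CPM with Sardomozide and 26.6 to 30.4 CPM with DMSO. The part of these cells in the changes of the binding protein genes was not tested.

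The genes whose profile over the 6 libraries was most like that of Igfbp4 and of Igfbp3 were also sought. The measure was the mean absolute difference of log2 CPM, each gene centred on its mean. The search covered 10283 tested genes whose mean log2 CPM was 2 or more, without predicted genes and genes named after clones. For Igfbp4 they were Lamb3, a laminin chain gene, Cemip, a gene of hyaluronan breakdown, and Pdk4, a kinase gene that slows pyruvate oxidation, with mean differences of 0.04, 0.04 and 0.05 log2 units. Lamb3 averaged 68.4 ± 3.52 CPM with Sardomozide and 107 ± 4.41 CPM with DMSO. For Igfbp3 they were Galns, a lysosomal sulfatase gene, Rrp12, a ribosome assembly gene, and Fgfr1op, a centrosome gene, each at 0.03 log2 units. Galns averaged 26.7 ± 0.71 CPM with Sardomozide and 20.6 ± 0.96 CPM with DMSO. All these genes were picked for likeness to family genes that had passed, so their group differences follow from the choice.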

How the data were processed

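Read counts per gene symbol from 6 libraries of C2C12 myotubes were used, 3 with Sardomozide and 3 with DMSO. The authors deposited raw counts, whole numbers with no normalization, 1 table per library. Tools listed in the submitters' processing notes are STAR, StringTie and DESeq2, and builds listed there are GRCm38 and mm10. For versions, roles, annotation, strand and multi-mapping the sources used here give nothing. Lengths and coordinates came from GENCODE M21 (GRCm38).

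The low-count filter was filterByExpr (minimum count 10, minimum total 15). TMM factors and the two-sided glmQLFTest of edgeR 4.0.16 (R 4.3.3) followed, with robust glmQLFit and treatment as the only term, with Benjamini-Hochberg adjustment over all genes. Standard errors and 95% intervals derive from the fold change and its F statistic. CPM use TMM-scaled library sizes. Pairs of replicates differed by more than sampling noise (chi-square per degree of freedom 5.45 to 16.1). The largest values, 16.1 and 13.1, were those of the pairs with Sardomozide replicate 2. All libraries were kept. The steps were tested on simulated counts.

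The genes, lists and tests were chosen with earlier results of these data known. All 10 family genes were named, and from each of 5 related lists up to 4 genes that passed with the smallest adjusted p, or the 2 nearest where none passed. Alternatives were other scaling (RLE, upper quartile, none), other tools (DESeq2 1.42.0, voom of limma 3.58.1), other filters (none, minimum count 50), a replicate block, non-robust dispersion, a threshold of 0.01, each library left out, and the longest transcript as gene length. For the related lists, the markers and the genes outside the family, these were added after seeing the data.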

Additional observations from a re-analysis of the deposited data

How the results depend on the processing

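Under the 16 alternatives, Igfbp3 stayed higher and Igfbp4 and Igfbp7 lower and past the threshold, and Igfbp5 did so in all but 2. The number of family genes higher was 1 in every fit. The number lower was 3, except 4 with estimation without robustness, where Igfbp2 passed (log2 fold change -0.54, adjusted p = 0.0295), and 2 to 3 with a library left out. Igfbp5 lost its call in the fits without Sardomozide replicate 2 or DMSO replicate 3, and Igfbp2 gained one without DMSO replicate 3. The cause was not tested. For genes that did not pass, Igf2r ran from -0.039 to 0.083 with a library left out, negative without Sardomozide replicate 2, and Ins2 turned to 0.0056 with limma-voom and ran from -0.42 to 0.24 with a library left out. All genes called numbered 2135, against 1079 at a threshold of 0.01 and 1326 to 1952 with a library left out. The lowest was without DMSO replicate 1. With the replicate block 1820 genes passed, and the counts among family genes were 1 higher and 3 lower as without it. Same-numbered libraries showed no shared deviation (correlations over genes 0.0219, -0.0233 and -0.0178). These values cannot show whether same-numbered libraries were cultured or prepared together. Plagl1 passed with the replicate block, no filter, the stricter filter and without DMSO replicate 3 (adjusted p = 0.0403, 0.0208, 0.0389 and 0.036). In 2 of the 16 fits (no filter, and without DMSO replicate 2) 1 gene of the proteolysis list passed as lower, and without Sardomozide replicate 1 so did 1 adaptor gene. Under the scaling alternatives the median log2 fold change of all genes ran from -0.00201 to -8.84e-05. For the 6 family genes that did not pass, a change of a size inside the printed interval was not excluded with 3 libraries a group.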

Other observations

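Igfbp2 was compared with other genes, limited by level and name as in the search above, after its split among DMSO libraries was seen. By the same measure of likeness over the 6 libraries, the nearest of 10283 genes was Serping1, the gene of the complement C1 inhibitor, with a mean difference of 0.13 log2 units, against 0.03 to 0.05 for the genes nearest to Igfbp3 and Igfbp4. Serping1 had 16.1, 15.2 and 16.6 CPM in the Sardomozide libraries, against 29.2, 24.8 and 19.3 CPM in the DMSO libraries (log2 fold change -0.61 ± 0.12 SE, edgeR adjusted p = 0.00335). The next nearest, Nek3 and Platr14, did not pass (edgeR adjusted p = 0.355 and 0.0774). These genes were picked for their likeness to Igfbp2, so a low value in DMSO replicate 3 follows from the choice and is no independent sign of a difference in that library.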
